A study of Mus musculus with 120 samples.

Results

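Leukocytes of the liver were compared between mice kept for 8 weeks on a normal diet (ND) and mice kept for 8 weeks on MCDD, a methionine and choline deficient diet. The labels give the strain as c57bl and the sort marker as CD45+, with no other selection and no further agent or allele. The cells are the wells that the plate map lists with 1 cell on plates labelled as week 8 liver CD45+, 7600 of 44840 such wells in the series. They lie on 20 plates, 10 for each diet, and each plate holds 380 cell wells and 4 wells listed as empty. Each plate is 1 sample and the unit of replication. Plates are named here by diet and by the number in their label, such as ND 1.6. The sources used here do not give what these numbers mark, how many animals the plates came from, or the animals' age. The p-values therefore set a difference between diets only against the variation between plates, and that variation may be technical. The deposited values are the total count of a well and the number of genes detected in it. They name no gene, so the CD45+ label could not be checked against marker genes and no cell type was assigned.

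CD45 is the common surface antigen of leukocytes, and a CD45+ sort of liver takes in Kupffer cells, monocytes and macrophages, neutrophils, dendritic cells, B cells, T cells and natural killer cells together. Resting lymphocytes are small cells with little RNA, whereas macrophages and activated cells are larger and hold more. Choline is needed for the liver to export fat, and a diet without choline and methionine leads to fat storage, inflammation and scarring of the liver in mice. The number of genes detected in a well reflects the RNA of the cell, how well it was captured and how deeply the well was sequenced, and these parts cannot be told apart from this number alone.

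Plate medians of the total lay between 9701.5 and 47744.5 counts per cell well, and whole plates summed to between 7074192 and 36626296 counts. The median total averaged 27542.8 ± 11508.5 on ND and 30616.8 ± 11271.1 on MCDD plates (SD, n = 10 each). Week 8 plates fell into 4 sequencing batches. SB12 held 2 plates of each diet, SB16 held 4 of each, SB18 held 4 ND and 2 MCDD plates, and SB17 held 2 MCDD plates and no ND plate. Diets were therefore compared within SB12, SB16 and SB18, with 10 ND and 8 MCDD plates. The same 380 cell barcodes were used on every plate, each at 1 position, and no pair of plates had identical totals. The median of the empty wells of a plate ranged from 13 to 314.5 genes, and on 4 MCDD plates (1.2, 1.3, 1.5 and 1.6) at least 1 empty well had more genes than the plate's median cell well. Results that pass a test are given with and without these 4 plates. MCDD 1.5 lies in SB17 and was not in the tests within batches, so without the 4 plates 10 ND and 5 MCDD plates remained. The 4 plates were picked by genes and not by totals. Over all empty wells the median total was 9605.5 on MCDD and 5806.5 on ND plates. At position O2 the empty well had a median total of 48545.5 over MCDD and 22039 over ND plates. Its total passed that of the median cell well on MCDD 2.5 (74888, with 25 genes) and ND 2.2 (50417, with 63), among others. The part of such wells in results on totals was not tested.

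The number of genes varied more from cell well to cell well on MCDD than on normal diet, while no difference was called in the median. The spread of a plate was measured as the interquartile range of log2(genes + 1), the distance between the 25th and the 75th percentile of its cell wells in log2 units. On ND plates the spread had a lowest value of 1.48, a median of 1.95 and a highest value of 2.201. On MCDD plates the lowest value was 1.96, the median 2.31 and the highest 2.78. Expressed as a ratio, the well at the 75th percentile had 3.87 ± 0.521 times the genes of the well at the 25th percentile on ND and 5.17 ± 0.968 times on MCDD (mean and SD over 10 plates of each diet, with 1 gene added to each value). The ranges of the diets overlapped, since ND 1.5 at 2.201 lay above MCDD 1.1 at 1.98, MCDD 2.2 at 1.96 and MCDD 2.5 at 2.18.

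**Figure D1:**
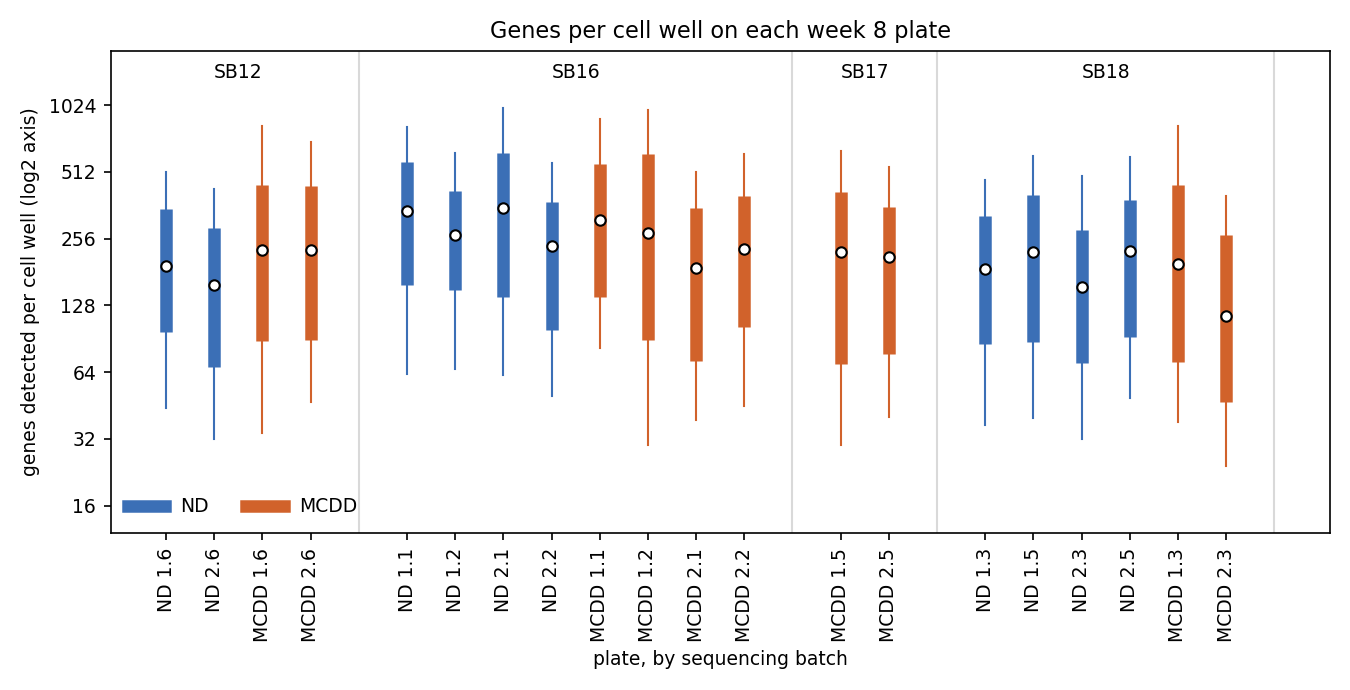
Genes detected per cell well on each of the 20 week 8 plates, on a log2 axis, ordered by sequencing batch and diet. Thin lines run from the 10th to the 90th percentile of the 380 cell wells, thick bars from the 25th to the 75th, and white points are medians. Bars are longer on most MCDD plates, while medians overlap between diets.

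Within batches, the spread was larger on MCDD by 0.44 ± 0.12 (log2 units, SE), with an adjusted p of 0.00317 over 4 readouts in the exact permutation test of diet labels over plates. In SB12 the MCDD plates had 2.298 and 2.32 and the ND plates 1.84 and 2.06, with no overlap. In SB18 the MCDD plates had 2.48 and 2.64, again above all 4 ND plates, which ran from 1.91 to 2.201. In SB16 the MCDD plates ran from 1.96 to 2.78 and the ND plates from 1.48 to 2.16, so the diets overlapped there although their means differed by 0.41. The MCDD plates of SB17, which did not enter the tests within batches, had 2.18 and 2.56. Leaving out any of the 18 plates kept the call, with values between 0.36 and 0.48, and without the plates with a high empty well the difference was 0.32 (exact permutation test, adjusted p = 0.0381, 10 ND and 5 MCDD plates). The call was lost among wells with at least 100 genes, where the difference fell to 0.20 (exact permutation test, adjusted p = 0.151), and without SB18, where it was 0.39 (adjusted p = 0.0952 in the same test). It was also lost among wells of middle total (the 25th to 75th percentile of a batch's totals), at 0.29, and between the 10th and the 90th percentile, at 0.45 (exact permutation tests, adjusted p = 0.0889 and 0.0870).

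**Figure D2:**
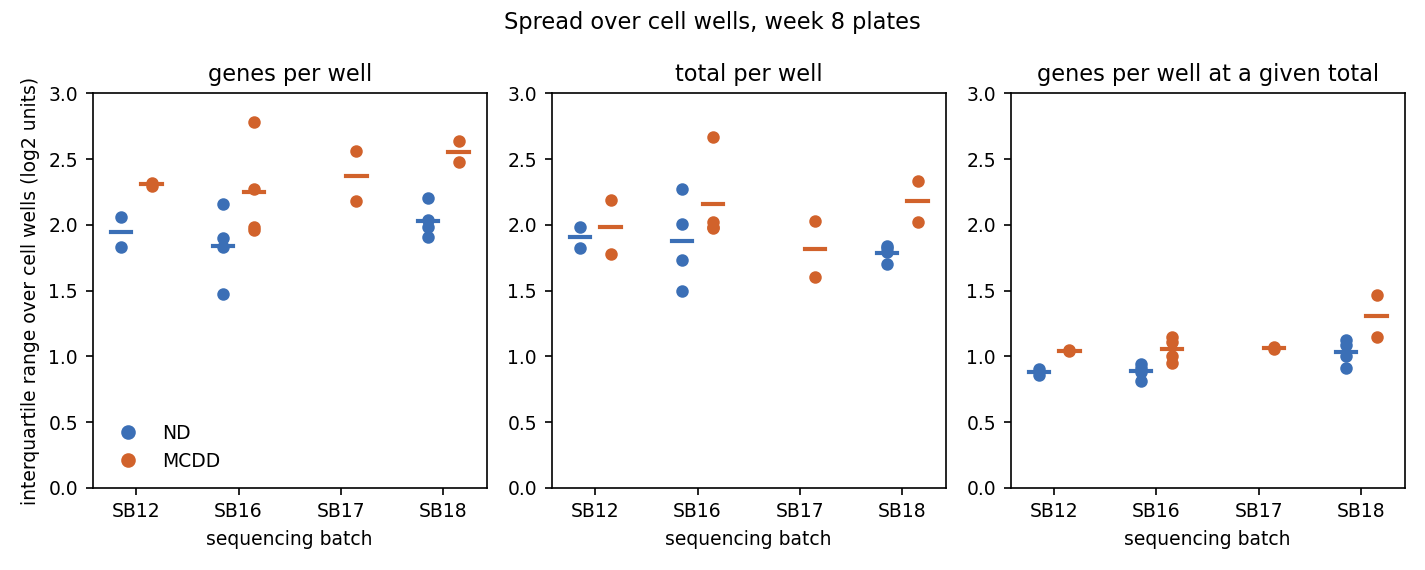
Interquartile range over the cell wells of a plate, in log2 units, for genes (left) and the total (middle), by sequencing batch. The right panel, titled genes per well at a given total, shows that of the distance from the batch's curve of genes on the total. Points are plates and short lines are means, with ND in blue and MCDD in orange. MCDD means lie above ND means in each of the 3 batches with both diets in all panels, and in the right panel no plate overlaps the other diet within its batch.

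The width above and below the median was measured separately. The distance from the 50th to the 90th percentile of log2(genes + 1) had a lowest value of 1.22, a median of 1.41 and a highest value of 1.65 on ND plates, and of 1.34, 1.56 and 2.06 on MCDD plates. It was larger on MCDD by 0.34 ± 0.07 (SE; exact permutation test, adjusted p = 0.00167 over 7 readouts added after the data had been seen). It was higher in all 3 batches, without overlap in SB12 and SB18, and it was 0.22 without the plates with a high empty well (exact permutation test, adjusted p = 0.0200). The distance from the 10th to the 50th percentile differed by 0.11 ± 0.15 (SE) and did not pass (exact permutation test, adjusted p = 0.536). In SB12 the upper distance differed by 0.31 and the lower one by 0.29, which are of similar size. SB16 gave 0.25 above and 0.12 below the median, and SB18 gave 0.47 above and -0.02 below. That lower distance averaged 2.27 ± 0.15 on ND and 2.43 ± 0.36 on MCDD (SD, n = 10 plates each). The 10th percentile itself averaged 47.4 genes on ND and 40.9 on MCDD plates, with lowest values of 31.9 and 24. Empty wells had a median of 19 genes on ND and 23.5 on MCDD plates. On the lowest plates the lower distance thus reached close to the level of empty wells, and their part in it was not tested. Whether the upper and the lower distance differ from each other in their response to diet was not tested. Among wells with at least 100 genes the upper distance differed by 0.14 and the lower one by 0.12, and the upper one was no longer called (exact permutation test, adjusted p = 0.194). Among wells of middle total the upper distance differed by 0.15 and was not called either (exact permutation test, adjusted p = 0.151).

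The wider distribution was also described by the share of wells in a middle range. Such a share falls when a distribution widens around it, so it restates the spread and is no separate result. Wells with at least 100 and fewer than 500 genes made up a share of the cell wells that had a lowest value of 48.7%, a median of 59.6% and a highest value of 66.1% on ND plates, and of 42.1%, 52.1% and 58.4% on MCDD plates. Within batches it was lower on MCDD, with a difference of -8.18 ± 2.87 percentage points (SE; exact permutation test, adjusted p = 0.0228 over the same 7 added readouts). SB12 gave -8.55, SB16 gave -4.41 and SB18 gave -13.0, and the diets did not overlap in SB12 and SB18. Leaving out MCDD 1.3 ended this call, at -7.43 (exact permutation test, adjusted p = 0.0656). It also ended without the plates with a high empty well, at -5.71 (adjusted p = 0.204 in the same test), without SB12, at -8.07 (adjusted p = 0.0680), and without SB18, at -5.79 (adjusted p = 0.283).

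The shares on either side of this range moved differently in the batches. Averaged over batches, the share of wells below 100 genes was higher on MCDD, since the share at or above 100 genes differed by -5.42 ± 2.57 points (SE), and the share at or above 500 genes differed by 2.76 ± 4.09 points (SE). Neither passed over the 5 thresholds from 50 to 1000 genes (exact permutation test, adjusted p = 0.176 and 0.486). In SB12 both shares were higher on MCDD, by 3.03 points at 100 genes and 11.6 points at 500 genes. In SB16 both were lower, by -5.72 and -1.32 points. In SB18 they went apart, at -10.7 points for 100 genes and 2.303 points for 500 genes.

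**Figure D3:**
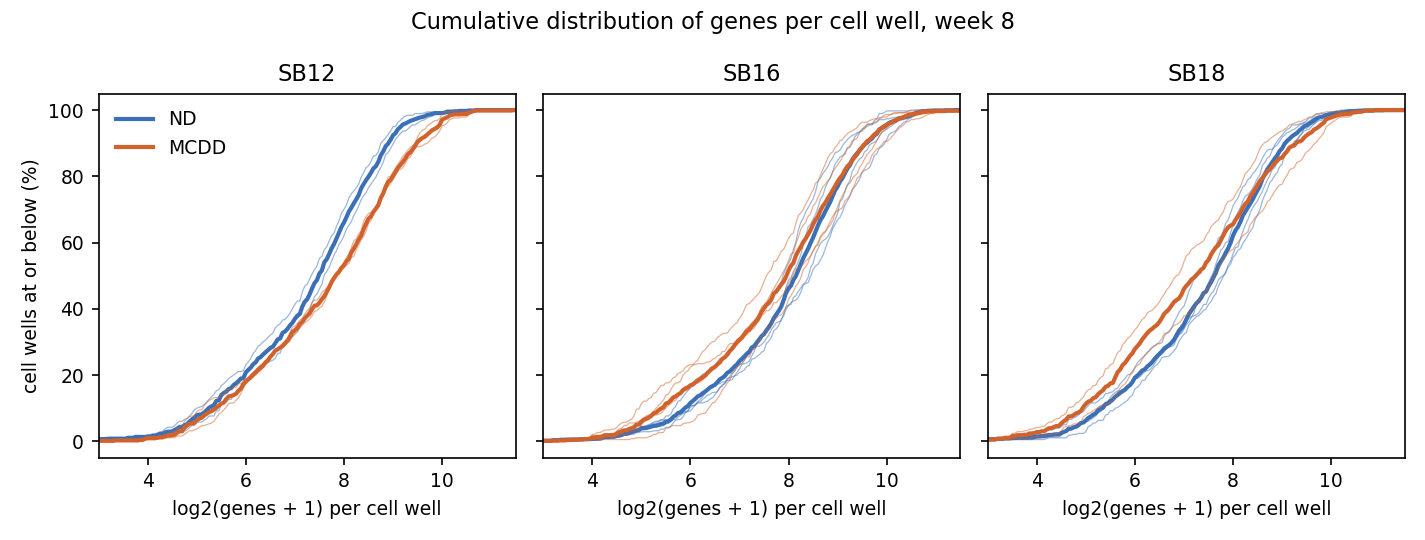
Cumulative distribution of log2(genes + 1) over cell wells in the 3 sequencing batches that held both diets. Thin lines are plates and thick lines are means over plates, with ND in blue and MCDD in orange, and the vertical axis is the percent of wells at or below the value. The MCDD mean rises less steeply: it lies to the right of the ND mean over most of SB12, and to the left at low values in SB16 and SB18, where the means come together at high values.

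Averaged over batches, the MCDD curve of cumulative shares lay above the ND curve at low numbers and below it at high numbers. The largest excess was 5.72 percentage points of wells at or below 110.4 genes, the sign changed near 303 genes, and the largest shortfall was -3.32 points at 652 genes. The area between the mean curves was 0.18 log2 units and did not pass the exact permutation test (adjusted p = 0.320 over 4 readouts). Taken alone, SB12 gave an area of 0.37, SB16 of 0.23 and SB18 of 0.33.

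No single percentile differed beyond the variation between plates. The 25th percentile averaged 104.5 ± 32.6 genes on ND and 84.5 ± 24.6 on MCDD, and the 90th percentile 610.5 ± 173 and 690.5 ± 183 (SD, n = 10 plates each). On the log2 scale the differences within batches were -0.27 ± 0.18 at the 10th, -0.35 ± 0.15 at the 25th, -0.16 ± 0.14 at the 50th, 0.09 ± 0.16 at the 75th and 0.18 ± 0.18 at the 90th percentile (SE). None of the 5 passed the exact permutation test, with adjusted p from 0.187 at the 25th to 0.567 at the 75th percentile, and the 25th percentile alone had an unadjusted p under 0.05, at 0.0375. The order of these values, from lower on MCDD at the bottom to higher at the top, restates the spread at single points and is no separate result. In SB12 all 5 percentiles were higher on MCDD, from 0.09 at the 10th to 0.69 at the 90th. In SB16 all 5 were lower, between -0.46 at the 25th and -0.02 at the 90th, so the level moved in opposite directions while the spread was larger on MCDD in both. Without ND 2.6 the 25th percentile passed, at -0.42 (exact permutation test, adjusted p = 0.0476).

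Genes were also compared at a given total. In every plate the number of genes followed the total, with Spearman's rho between 0.74 and 0.88 over the 380 cell wells of a plate, a description over wells of 1 library. A smooth curve of log2(genes + 1) against log2(total + 1) was fitted to all week 8 cell wells of a batch, and a plate's mean distance from the curve was taken. This distance had a lowest value of -0.74, a median of -0.01 and a highest value of 0.68 on ND plates, and of -0.65, -0.14 and 0.13 on MCDD plates. MCDD plates thus sat inside the range of the ND plates. The MCDD values include 0.12 and -0.33 from SB17, where the curve was fitted to MCDD plates alone. Those 2 values therefore cannot place MCDD relative to ND. Within batches MCDD was at -0.22 ± 0.19 relative to ND (log2, SE), which did not pass (exact permutation test, adjusted p = 0.320). The batches gave -0.10 for SB12, -0.11 for SB16 and -0.45 for SB18, all with overlap. The difference was -0.26 ± 0.20 in the lowest tercile of a batch's totals, -0.19 ± 0.21 in the middle one and -0.21 ± 0.18 in the highest (SE; exact permutation test, adjusted p = 0.336, 0.388 and 0.336). The slope of log2 genes on log2 total was 0.70 ± 0.05 on ND and 0.72 ± 0.05 on MCDD plates (SD, n = 10 each), with a difference of 0.01 ± 0.02 within batches (SE; exact permutation test, adjusted p = 0.810).

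**Figure D4:**
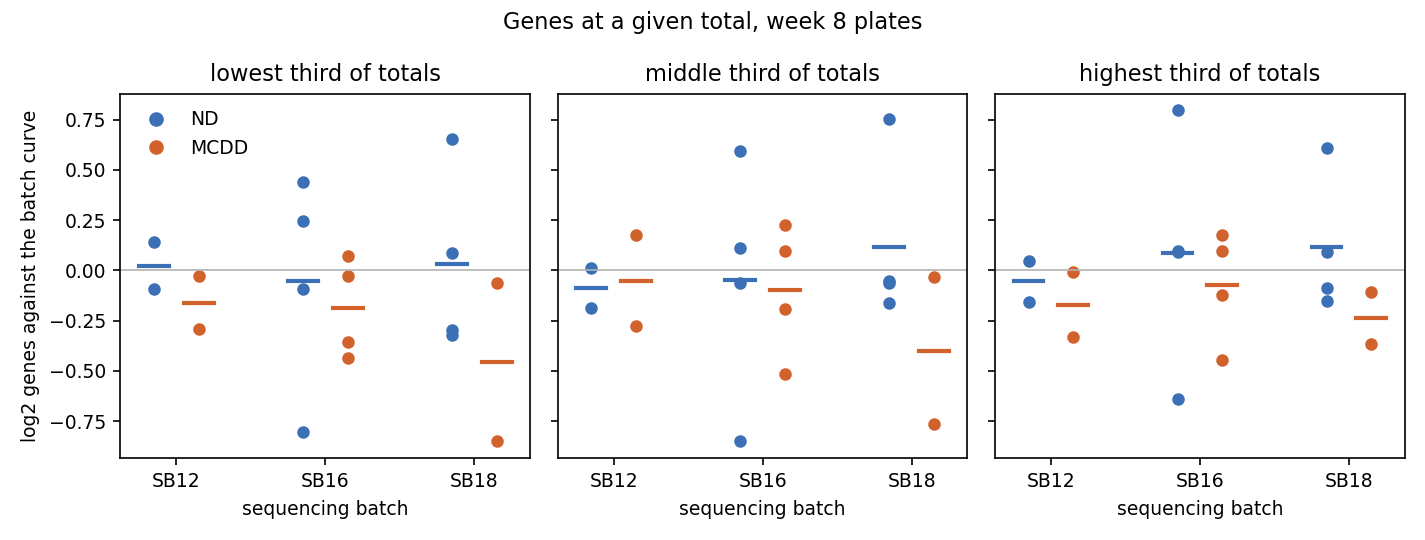
Mean distance of a plate's cell wells from the batch's curve of log2(genes + 1) on log2(total + 1), in the lowest, middle and highest tercile (the panel titles) of the batch's totals. Points are plates, short lines are means by diet, and 0 is the curve. Plates of both diets spread widely around 0, and their ranges overlap in SB12, SB16 and SB18 in all panels.

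Around the batch's curve of genes on the total, the wells of a plate scattered more widely on MCDD. This scatter was taken over all totals of a plate together, and its dependence on the spread of totals was not tested. The interquartile range of the distance from the batch's curve had a lowest value of 0.81, a median of 0.91 and a highest value of 1.12 on ND plates, and of 0.95, 1.06 and 1.46 on MCDD plates. It was larger on MCDD by 0.20 ± 0.05 (log2 units, SE; exact permutation test, adjusted p = 0.00111 over the 7 added readouts). Its unadjusted p of 0.000159 is the smallest that 6300 relabellings within batches can give, and every MCDD plate lay above every ND plate of its batch in all 3 batches. SB12 gave 0.16, SB16 gave 0.17 and SB18 gave 0.27. The MCDD plates of SB17 had 1.06 and 1.07 around their own batch's curve. Leaving out any of the 18 plates kept the call, with values from 0.15 to 0.24, and without the plates with a high empty well the difference was 0.15 (exact permutation test, adjusted p = 0.0200). Among wells with at least 100 genes it was 0.11 and not called (exact permutation test, adjusted p = 0.152). Among wells of middle total it was 0.22 with a larger SE of 0.13 and was not called (exact permutation test, adjusted p = 0.273). Around a curve fitted to each plate alone the difference was 0.15 ± 0.06 (SE; exact permutation test, adjusted p = 0.0174), which was lost without MCDD 1.3, at 0.0756 (adjusted p = 0.191 in the same test). It was also lost without the plates with a high empty well, at 0.0824 (exact permutation test, adjusted p = 0.273), without SB12, at 0.17 (adjusted p = 0.0680), and without SB16, at 0.18 (adjusted p = 0.156).

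The total itself was also more widely spread on MCDD, but less firmly. The interquartile range of log2(total + 1) averaged 1.85 ± 0.21 on ND and 2.06 ± 0.29 on MCDD plates (SD, n = 10 each). Within batches the difference was 0.27 ± 0.13 (SE; exact permutation test, adjusted p = 0.0482 over the 7 added readouts), and leaving out 1 plate kept this call for 7 of the 18 plates. It was lost on leaving out any of the 3 batches, and it passed only once the share of wells in the middle range had joined the added readouts over which p was adjusted. Without the plates with a high empty well it was 0.11 (exact permutation test, adjusted p = 0.437). SB12 gave 0.08, SB16 gave 0.28 and SB18 gave 0.39. In SB12 the spread of genes differed by 0.36 with this small difference in the spread of totals. The area between the diets' cumulative curves of the total was 0.22 and did not pass (exact permutation test, adjusted p = 0.507). How far the spread of totals takes part in the spread of genes was not tested beyond the comparisons around the batch's curve and at middle totals.

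Position on the plate was shared by both diets, since each position carries 1 barcode. The mean of log2(genes + 1) at a position over the 20 plates ranged from 2.54 to 8.80, and the correlation between any 2 plates over positions had a median of 0.18 and ranged from -0.04 to 0.36 over 190 pairs, a description over shared barcodes. Leaving out the 25% of positions with the fewest genes gave a difference in the spread of genes of 0.52 (exact permutation test, adjusted p = 0.00190).

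The number before the point in a plate's label takes the values 1 and 2 on each diet. Among plates numbered 1 the spread of genes averaged 1.85 ± 0.26 on ND and 2.46 ± 0.31 on MCDD, and among plates numbered 2 it averaged 2.03 ± 0.09 on ND and 2.24 ± 0.19 on MCDD (SD, n = 5 plates each). The differences were 0.61 and 0.21, and whether they differ from each other was not tested. MCDD 1.2, 1.3, 1.5 and 1.6, the plates with a high empty well, are among the 5 MCDD plates numbered 1. On MCDD this number and a high empty well therefore largely coincide. Both MCDD means lay above both ND means. If each number stood for 1 animal or 1 sort, there would be 2 per diet, and the exact permutation test could not go below p = 0.333, so a difference between diets could not then be told apart from one between such sources.

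The larger spread on MCDD at week 8 was set beside the same liver CD45+ sort at the 2 earlier time points, in the batches that held both diets of that week. At week 2 the spread averaged 1.78 ± 0.57 over 9 ND plates and 1.52 ± 0.18 over 10 MCDD plates (SD). At week 4 the means were 1.68 ± 0.09 over 8 ND plates and 1.65 ± 0.30 over 10 MCDD plates (SD). Within batches MCDD differed from ND by -0.30 ± 0.17 at week 2 and -0.02 ± 0.12 at week 4 (SE; permutation tests, unadjusted p = 0.104 and 0.859). The effect of diet at week 8 exceeded that at week 2 by 0.74 and that at week 4 by 0.46. Both differences passed a permutation test of diet labels within week and batch, with adjusted p of 0.00100 and 0.0118 over these 2 tests, which were added after the data had been seen. On leaving out each plate in turn they ranged from 0.60 to 0.85 against week 2 and from 0.38 to 0.52 against week 4, and all kept the call. Without the week 8 plates with a high empty well they were 0.63 and 0.34 (permutation tests, adjusted p = 0.00560 and 0.0443), and without such plates of any of these weeks 0.60 and 0.37 (permutation tests, adjusted p = 0.0209 and 0.0325). In SB12 and SB16 alone, which hold both weeks 2 and 8, the difference was 0.69 (permutation test, adjusted p = 0.00640). Weeks 4 and 8 shared no batch, so for this pair week and batch cannot be told apart. At week 2 the ND plates 2.6 of SB12 and 2.5 of SB15 had a spread of 2.51 and 2.93, and the other 7 ND plates had at most 1.70. ND 2.6 was the only ND plate of SB12 at week 2, so SB12 entered the week 2 difference and the 0.69 through this plate. Left out 1 at a time, these 2 plates gave 0.64 and 0.60 against week 2, and they were not left out together. The spread of totals moved with that of genes at week 2, where it differed by -0.29 ± 0.12 (SE; permutation test, unadjusted p = 0.0352), and its part in the difference between weeks was not tested.

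**Figure D5:**
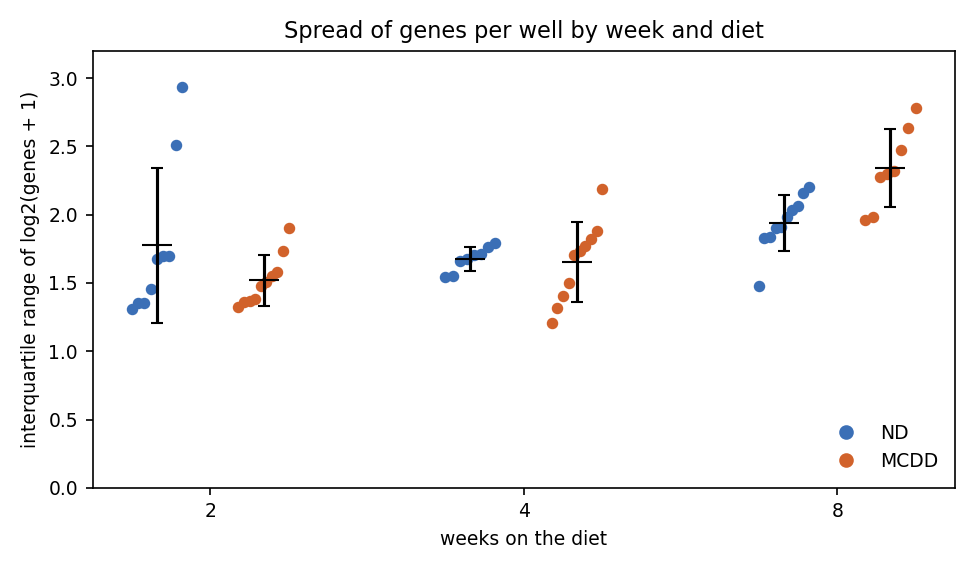
Interquartile range of log2(genes + 1) per plate by weeks on the diet, in batches that held both diets of that week, with ND in blue and MCDD in orange. Points are plates, horizontal marks are means and bars are the SD. At week 8 the MCDD mean of 2.34 (n = 8 plates) lies above the ND mean of 1.94 (n = 10 plates), while at weeks 2 and 4 the MCDD means of 1.52 and 1.65 lie below the ND means of 1.78 and 1.68.

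For genes at a given total, the diet difference at week 8 minus that at week 2 was -0.21 on the log2 scale and did not pass (permutation test, p = 0.344). The effect was -0.22 at week 8 and -0.01 at week 2, from 18 and 19 plates.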

How the data were processed

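Single liver CD45+ cells were sorted into capture plates, and their mRNA was barcoded, pooled, amplified by in vitro transcription and sequenced, per the labels' protocols. Bcl2fastq 2.15.0.4 and build mm10 are named in the submitters' processing notes, whereas the aligner, counter, annotation and any cell filter are not stated there. Each well's total was deposited as a count in whole numbers. The reads carried molecule barcodes, but per the file headers it stays unstated if the total is of molecules or reads and if spike-in RNA is part of it. The deposited number of genes has no correction for depth. Counts per gene and sort readouts were not analysed here, so the rule for naming genes and the marker lists named none, doublets could not be called and wells could not be thinned to 1 depth.

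The amplification batch in a sample's title matched each plate to its labels. Readouts were computed per plate over the cell wells, with a pseudocount of 1. Curves on the total were lowess fits with a span of 0.3 per batch. The difference between diets was a mean over batches, weighted by plates, and tested by all 6300 relabellings within batches, two-sided except for areas between curves, which have no sign. Standard errors pool the variance between plates within batch and diet. Benjamini-Hochberg adjustment covered 4 main readouts, 5 percentiles, 5 share thresholds and 7 added readouts separately, and an adjusted p under 0.05 was a call. Week comparisons used 100000 relabellings. A plate's share has a 95% Wilson interval of up to 5.00 points to either side, for counting error only. The members and readouts were chosen with earlier results of these data known. The tests of the spread of genes and of the area between curves of genes were checked on simulated plates drawn independently from ND wells. The other readouts, the week comparisons and any grouping of plates by source were not checked this way. Alternatives were other strata, left-out plates and batches, other well filters, pseudocounts and curves. Versions were statsmodels 0.14.6, scipy 1.17.1, pandas 2.3.3, numpy 2.4.6, matplotlib 3.10.9 and Python 3.11.15.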

Additional observations from a re-analysis of the deposited data

Results flagged for a closer look

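The effect of diet on the spread of genes at week 8 differed from that at week 2 by 0.74 log2 units and from that at week 4 by 0.46, each by a permutation test of the difference itself (adjusted p = 0.00100 and 0.0118). The ND plate 1.2 lay far below the other ND plates in its spread, at 1.48, the only mark of this kind among 22 tests of groups of 10 plates. Chance marks about 1 in 20 such groups.

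Of the wells listed as empty, 5 of 40 on MCDD plates and 0 of 40 on ND plates had more genes than the median cell well of their plate. Position P2 gave 722 genes on MCDD 1.2, 819 on MCDD 1.3, 683 on MCDD 1.5 and 317 on MCDD 1.6, and position O2 gave 597 genes on MCDD 1.3. The medians of the cell wells on these plates were 270, 196.5, 222.5 and 228 genes. The 4 plates lie in 4 sequencing batches and carry the number 1 before the point. The median of all empty wells was 23.5 genes on MCDD and 19 on ND. The part of these wells in the results above was not tested beyond leaving their plates out.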

How the results depend on the processing

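The larger spread of genes on MCDD was called under 26 of 30 alternatives and was higher on MCDD in all 30, from 0.20 to 0.52. Of these alternatives, 18 left out 1 plate each and all kept the call, and 8 of the other 12 kept it. The 4 lost calls were 0.39 without SB18, 0.20 among wells with at least 100 genes, 0.29 among wells of middle total and 0.45 between the 10th and 90th percentile. Middle totals, these percentiles, positions and plates with a high empty well were alternatives chosen after seeing the data. The scatter around the batch's curve and the distance above the median were not called above a minimum of 100 genes (0.11 and 0.14) or at middle totals (0.22 and 0.15). The lower share of wells with at least 100 and fewer than 500 genes was lost without SB12 (-8.07) and SB18 (-5.79), among wells with at least 100 genes (-5.54), without the plates with a high empty well (-5.71) and with the replicate block (-7.32), and ranged from -9.55 to -6.96 on leaving out each plate, lost at -7.43 without MCDD 1.3. The wider total and the scatter around a plate's own curve kept their calls in 9 and 21 of 27 alternatives. On leaving out 1 plate these were 7 and 17 of 18, and among the other 9 alternatives 2 and 4.

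With plates of the same number as pairs (replicate block, no strata), the spread of genes differed by 0.41 (exact sign flips, adjusted p = 0.00781), and of the called results the block lost the share above and the total's spread, at 0.21. This pairing, like the alternative with no strata by batch, took in the SB17 plates. MCDD 1.5 and 2.5 of SB17 were paired with ND 1.5 and 2.5 of SB18, so there diet and batch cannot be told apart. Whether the numbers pair plates is not known. Deviations over positions correlated by over 0.1 in 0 of 10 pairs. Wells at the same position hold different cells, so this check cannot decide whether plates share an animal or a sort. The number of percentiles that passed ranged from 0 to 1 on leaving out each plate. The 75th percentile turned to -0.0249 without SB12 and ranged from -0.015 to 0.20 without each plate, and the 50th turned to 0.11 above the minimum of 100 genes. The slope turned to -0.00737 without SB12 and -0.0347 above that minimum, and ranged from -0.00717 to 0.0157 without each plate, with -0.00299 without MCDD 1.6 and -0.00349 without MCDD 2.1. The distance below the median turned to -0.0738 without the plates with a high empty well. The causes were not tested. The areas between curves, genes at a given total and the 5 share thresholds were not called under any alternative.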
